A study of Mus musculus with 3 samples.

Results

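The 37 genes described here build and fill the lysosome, and were chosen by symbol from 55536 annotated mouse genes. They comprise 8 subunits of the V1 sector and 7 of the V0 sector of the vacuolar proton pump, 2 proteins that accompany the pump, 11 soluble enzymes and 6 membrane proteins of the lysosome. The 3 others are the saposin precursor gene Psap, the sterol carrier gene Npc2 and the trafficking regulator gene Lyst. All libraries came from 1 group, bone-marrow-derived macrophages of strain C57BL/6J given 100 ng/ml lipid A for 30 min, from which the chromatin fraction was isolated. Ribosomal RNA was depleted and the rest sequenced as total RNA. Lipid A is the part of bacterial endotoxin that the receptor TLR4 recognises. The sex and age of the mice were not collected, and the 3 biological replicates share 1 donor record, so separate animals are not documented and spreads describe these libraries only. No untreated library was analysed here, so levels and not responses are given.

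Macrophages digest what they engulf in lysosomes, whose enzymes work in acid. The acid is made by the vacuolar ATPase: its cytosolic V1 sector hydrolyses ATP and turns a ring of V0 subunits in the membrane, which carries protons inward. Many lysosomal genes carry an E-box-like element near their start sites, which the transcription factors TFEB, TFE3 and MITF recognise.

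Libraries 1, 2 and 3 were made from 1 µg, 250 ng and 500 ng of RNA and held 16301150, 17033725 and 16205704 expected counts on annotated genes. Each amount of RNA occurred in 1 library, so its part in any library difference cannot be told apart. In TPM, a length-corrected transcript level whose total is the same in every library, library 3 read high for most genes: the median detected protein-coding gene deviated from its own mean by -0.39, -0.10 and 0.49 in log2 in libraries 1 to 3, and the median lysosomal gene by -0.28, -0.05 and 0.30. All 8 macrophage markers were detected, with a summed level of 1264 to 1780 TPM and Sirpa the highest at 673 ± 84.5 TPM (SD, n = 3). Of the markers of other cells, 2 of 7 for osteoclasts were detected, 0 of 8 for neutrophils, 4 of 6 for dendritic cells, 0 of 6 for T and NK cells, 0 of 6 for B cells and 3 of 6 for stromal cells. No list of these summed to more than 6.39 TPM in any library. In the authors' second quantification of the same reads the T and NK cell markers summed to 11.9 to 25.7 TPM, mostly Cd3d with a mean of 14.1, and osteoclast markers reached 14.4 and dendritic cell markers 13.1 TPM. The part of such cells in the results was not tested. In the first quantification, used here unless stated, their highest genes were Batf3 at 2.00 TPM, Ctsk at 0.74, Ngp at 0.42, Col3a1 at 0.24, Zap70 at 0.22 and Cd79a at 0.063, while Calcr, Ocstamp, Cd3e, Ncr1 and Cd79b had 0 counts in all libraries. The second quantification listed Ocstamp at a mean of 5.59 TPM. In bulk RNA, fewer cells of a type and less RNA per cell cannot be told apart.

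The E-boxes found near the start sites are shown first, because they are the sequence feature that these genes are best known to share. RefSeq promoter windows of 300 bases, 250 of them upstream of the start site, were matched by symbol for 29 of the 37 genes on build GRCm38.p6, the assembly also called mm10. Atp6v1h, Atp6v0d2, Atp6v1g1, Atp6v0a2, Asah1, Atp6v1b2, Atp6v1c1 and Npc1 had no entry in the table used. The stretches below hold every copy of the motif CACGTG that lies upstream of the RefSeq start site, in capitals and read 5′ to 3′ on the gene's strand, with up to 20 flanking bases on each side. The motif is its own reverse complement, so each copy lies on both strands. For Lgmn and Atp6v1a the GENCODE gene begins farther upstream than the RefSeq start, so the stretch lies inside the gene's GENCODE span, outside its exons. The end of the Mcoln1 stretch and the last bases of that of Atp6v0b lie in an exon of the GENCODE gene.
Lamp1, chr8:13159080-13159160, plus strand: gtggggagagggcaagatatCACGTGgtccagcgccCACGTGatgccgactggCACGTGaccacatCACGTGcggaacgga
Mcoln1, chr8:3500428-3500486, plus strand: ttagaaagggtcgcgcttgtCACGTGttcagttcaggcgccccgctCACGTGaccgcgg
Atp6v0b, chr4:117887330-117887385, minus strand: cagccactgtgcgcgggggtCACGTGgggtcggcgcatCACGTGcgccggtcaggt
Atp6v1a, chr16:44139365-44139410, minus strand: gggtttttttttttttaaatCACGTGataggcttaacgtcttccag
Glb1, chr9:114401010-114401055, plus strand: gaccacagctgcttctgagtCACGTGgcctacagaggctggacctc
Lgmn, chr12:102439116-102439161, minus strand: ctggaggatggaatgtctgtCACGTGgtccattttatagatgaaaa
Gaa, chr11:119267803-119267848, plus strand: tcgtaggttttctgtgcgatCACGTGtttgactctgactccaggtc

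Lamp1, which encodes the main glycoprotein of the lysosomal membrane, held 4 copies that began 61, 45, 28 and 15 bases before its start site. Mcoln1, the gene of a lysosomal calcium channel, held 2 at 71 and 45 bases, and Atp6v0b, the gene of a proteolipid of the V0 ring, held 2 at 36 and 18 bases. Atp6v0d1 and Atp6v0e also held the motif, at the start site and inside the transcript, and their sequence is not shown. Of the 29 genes with a window, 9 held CACGTG, a share of 31.0%, against 12.0% of 8680 detected protein-coding genes with a window, 9.18% of 16522 protein-coding genes and 7.15% of all 32851 windows. The longer motif TCACGTGA, which contains CACGTG and is likewise its own reverse complement, was found in Atp6v1a, Mcoln1, Atp6v0d1 and Atp6v0e. That is 13.8% of the 29 genes, against 2.28% of detected protein-coding genes and 0.974% of all windows. Among other lysosomal genes, listed for comparison, 8 of 29 held CACGTG and 5 the longer motif. A match describes these letters only, and no binding was measured.

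The genes with the motif were not set apart in level. Their median was 33.6 TPM (range 6.00 to 149, n = 9), and that of the genes without it 34.5 TPM (2.96 to 622, n = 20).

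**Figure D1:**
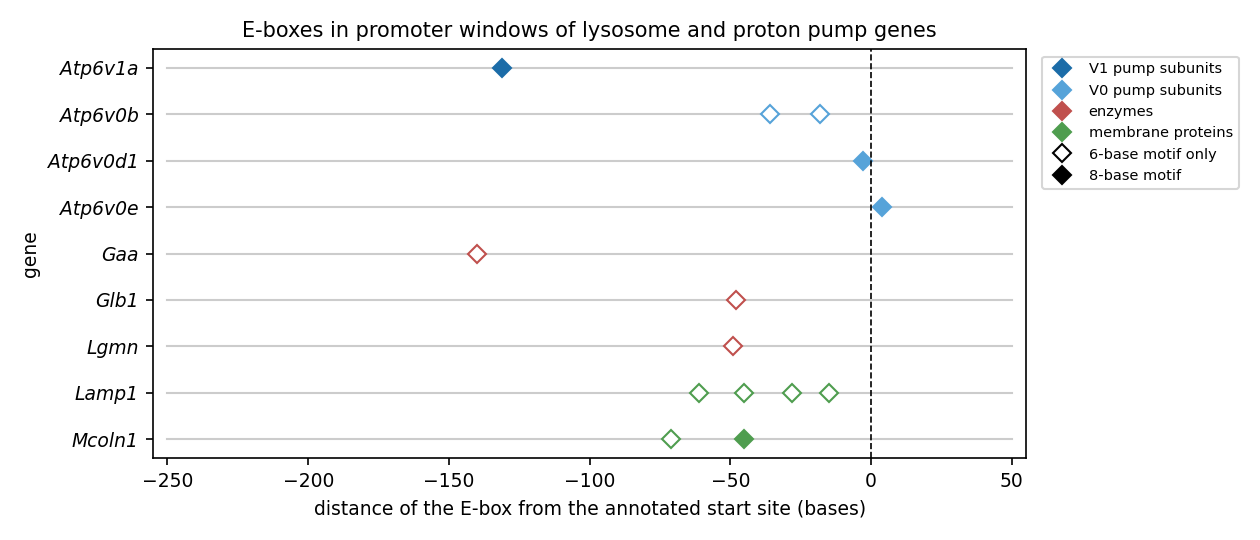
Position of each CACGTG motif in the promoter windows of the 9 genes that held it. The x axis gives the distance of the motif's first base from the annotated start site in bases, each row is a gene, colours mark the gene classes and filled diamonds mark copies inside the longer motif. Lamp1 has 4 copies within 61 bases of its start site, and Atp6v1a and Gaa have their single copies farther upstream.

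RNA of all 37 genes was present on chromatin. A gene was called detected when its expected counts averaged 10 or more, which all 37 genes and 49.9% of 22028 protein-coding genes reached. At 32.7 ± 7.58 TPM (SD of the library medians, n = 3) the median lysosomal gene stood above the median detected protein-coding gene, at 4.94 ± 1.75 TPM. Of the 37, 36 had a mean above that median and 14 were in the top 10% of the 10983 detected protein-coding genes. Together they held 0.864%, 0.917% and 0.725% of the expected counts in libraries 1 to 3. Psap and Lyst alone took 54.8% ± 3.34 of that (SD, n = 3).

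Psap (ENSMUSG00000004207.14, chromosome 10, 60277627 to 60302597) encodes the precursor of the saposins, which help enzymes to reach sphingolipids. It was the highest of the 37 in every library, with 500, 705 and 661 TPM. Lyst (ENSMUSG00000019726.12, chromosome 13, 13590397 to 13778803) regulates the size and traffic of lysosome-related organelles. It had 221, 249 and 303 TPM, and its span of 188 kb was the longest of the group. Npc2, whose product hands cholesterol to the membrane protein of Npc1, had 23.7, 37.7 and 41.9 TPM. Psap did not overlap with Lyst, nor Lyst with Npc2.

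**Figure D2:**
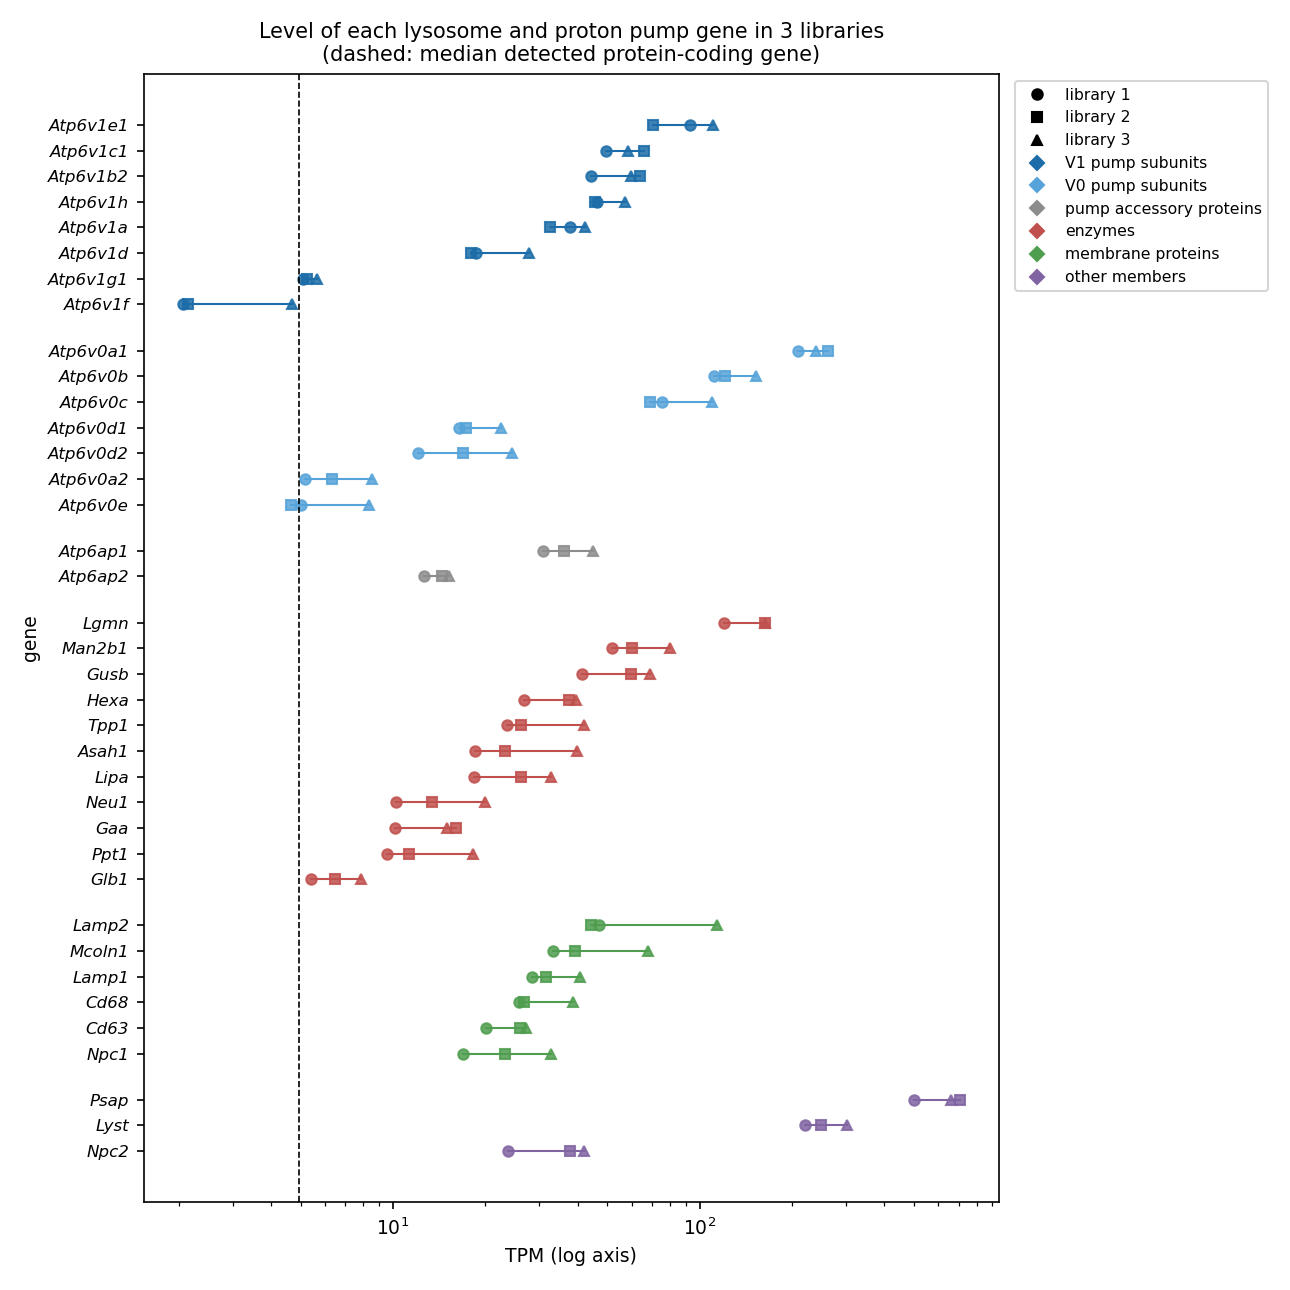
TPM of each of the 37 genes in the 3 libraries. The x axis is TPM on a log scale, each row is a gene, colours mark the classes, marker shapes the libraries and lines the range over libraries, and the dashed line marks the median detected protein-coding gene at 4.94 TPM. Atp6v1f is the only gene that lies below the line in all libraries.

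Subunits of the V1 sector spanned 2.96 to 91.2 TPM, and 6 of 8 had at least 10 TPM. Atp6v1e1 (ENSMUSG00000019210.10, chromosome 6, 120794305 to 120822793), a subunit of the peripheral stalks that hold the sector in place, was the highest with 92.7, 70.6 and 110 TPM. Atp6v1c1, whose product joins the stalks to V0, had 49.6, 65.8 and 58.4 TPM. Atp6v1b2, a noncatalytic member of the ATP-binding hexamer, had 44.1, 64.0 and 59.5 TPM. These ranges overlapped with that of the regulatory subunit gene Atp6v1h, at 46.3, 45.7 and 57.2 TPM, although Atp6v1c1 was above Atp6v1h in each library. Catalytic subunit gene Atp6v1a followed with 37.9, 32.5 and 42.4 TPM, below Atp6v1h in each library. With TPM summed over protein-coding transcripts only, Atp6v1a was above Atp6v1h in each library, with means of 20.1 and 13.7 TPM. Atp6v1d, of the rotating central stalk, had 18.7, 18.0 and 27.7 TPM. The stalk subunits Atp6v1g1, at 5.08, 5.26 and 5.64 TPM, and Atp6v1f, at 2.06, 2.15 and 4.67 TPM, were the lowest of the sector and did not overlap, although in the second quantification they did. Chromatin RNA of subunits of the same complex thus differed by more than an order of magnitude, from Atp6v1f to Atp6v1e1.

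The V0 sector spanned a wider range, 6.00 to 237 TPM. Atp6v0a1 (ENSMUSG00000019302.16, chromosome 11, 101009452 to 101063719), a form of the large subunit through which protons leave the ring, had 210, 262 and 239 TPM. The ring genes Atp6v0b, at 111, 121 and 153 TPM, and Atp6v0c, at 75.5, 69.1 and 110 TPM, came next. Atp6v0b was the higher in each library, but in the second quantification Atp6v0c had a mean of 149.8 TPM against 147.0 for Atp6v0b. Atp6v0d1 and Atp6v0d2 encode alternative forms of the subunit that joins ring and stalk. Atp6v0d1 had 16.4, 17.3 and 22.5 TPM and Atp6v0d2 12.1, 16.95 and 24.5 TPM, ranges that overlapped. They did not in the second quantification, where the means were 44.7 and 25.4 TPM. Atp6v0a2 had 5.16, 6.31 and 8.54 TPM, and Atp6v0e, a small membrane subunit, 5.02, 4.64 and 8.33 TPM. For Atp6v0a2 the authors' posterior mean TPM, another estimate in the same table, was 40.7, so its level is uncertain.

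Where a subunit has several genes, the paralogs outside the 37 differed from those inside. Tcirg1, which encodes the a3 form of the large V0 subunit and is known from osteoclasts and macrophages, had 434, 687 and 622 TPM. It was above Atp6v0a1 in all 3 libraries, and Atp6v0a4 had a mean of 0.0033 TPM. Atp6v1b1 at 0.28 TPM, Atp6v1c2 at 0.050 and Atp6v1g3 at 0.017 fell below the detection minimum, against 55.9, 57.9 and 5.33 TPM for Atp6v1b2, Atp6v1c1 and Atp6v1g1. Atp6v1g2 was detected at 1.15, 1.26 and 3.03 TPM. Atp6v1e2 and Atp6v0e2 had 0 counts in every library, where the 3 counts that a count of 0 allows would equal 0.184, 0.176 and 0.185 CPM, counts scaled to the library total. The second quantification, however, listed Atp6v0e2 at a mean of 2.85 TPM. The accessory genes Atp6ap1 and Atp6ap2 had 30.8, 36.1 and 45.0 TPM and 12.6, 14.5 and 15.2 TPM.

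Soluble enzymes were led by Lgmn (ENSMUSG00000021190.14, chromosome 12, 102394084 to 102439813), the gene of the protease legumain, with 120, 163 and 164 TPM. The mannosidase gene Man2b1 followed with 51.9, 60.1 and 80.0 TPM, and the glucuronidase gene Gusb with 41.3, 59.7 and 68.9 TPM. Man2b1 was above Gusb in each library, by less than the spread between libraries. In the second quantification Gusb was above Man2b1 in libraries 2 and 3, with means of 61.47 and 61.44 TPM. Hexa, which encodes a chain of hexosaminidase, Tpp1, a peptidase gene, Asah1, the acid ceramidase gene, and Lipa, the acid lipase gene, had means of 34.7, 30.5, 27.2 and 25.8 TPM and overlapped. The sialidase gene Neu1, at 10.2, 13.4 and 19.9 TPM, the glycogen-degrading glucosidase gene Gaa, at 10.2, 16.0 and 15.0, and the thioesterase gene Ppt1, at 9.59, 11.2 and 18.2, also overlapped. Within each library, however, Hexa was above Lipa and Neu1 above Ppt1. In the second quantification Neu1 was below Ppt1 in library 3. Glb1, the galactosidase gene, was lowest with 5.41, 6.48 and 7.89 TPM. With TPM summed over protein-coding transcripts only, Neu1 was lowest at a mean of 1.29 TPM.

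Membrane proteins lay in a narrower band, from 24.2 to 68.2 TPM. Lamp2 (chromosome X, 38401357 to 38456454), a glycoprotein of the lysosomal membrane, had 46.8, 44.1 and 114 TPM. Its mean of 68.2 TPM rested on library 3 and was 45.5 TPM without it. Mcoln1 had 33.3, 39.3 and 67.6 TPM, Lamp1 28.5, 31.6 and 40.8, and the macrophage glycoprotein gene Cd68 25.8, 26.7 and 38.7, though Cd68 had a mean of 65.9 TPM in the second quantification. The tetraspanin gene Cd63 had 20.2, 26.0 and 27.2 TPM and the cholesterol exporter gene Npc1 16.9, 23.1 and 32.7. The range of each of the 6 genes overlapped with those of its neighbours in order of level. Within each library, however, Lamp2, Mcoln1, Lamp1, Cd68 and Cd63 kept this order, and only Npc1 passed Cd63 in library 3. In the second quantification Cd68 left the order, and Npc1 was above Cd63 in each library and above Lamp1 in library 3. With TPM summed over protein-coding transcripts only, Cd68 was above Lamp1 in each library and above Lamp2 in libraries 1 and 2.

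Pump genes were slightly higher than the other classes in gene TPM, but not in every measure. The class medians were 35.2 ± 6.25 TPM for the 17 pump genes, accessory proteins included, 28.1 ± 10.7 for the 11 enzymes and 32.0 ± 6.78 for the 6 membrane proteins (SD, n = 3). On the log2(TPM + 0.1) scale, pump minus enzymes was 0.74, 0.32 and 0.10 in libraries 1 to 3, and pump minus membrane proteins 0.19, 0.16 and 0.09. Enzymes minus membrane proteins was -0.55, -0.15 and -0.0033. V1 minus V0 was larger, 1.32, 1.15 and 1.00.

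These class differences depended on which transcripts were counted. With TPM summed over protein-coding transcripts only, pump minus enzymes became 0.05, -0.06 and -0.25, and pump minus membrane proteins -0.75, -0.57 and -0.66. V1 minus V0 became -0.26, 0.31 and -0.16. In CPM, which takes no account of length, pump minus enzymes had a mean of -0.42 and pump minus membrane proteins of -0.28. By class means in place of medians V1 minus V0 was -0.31, and V0 held the highest pump genes as well as several low ones. No order of the 3 classes therefore held in all the measures used.

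**Figure D3:**
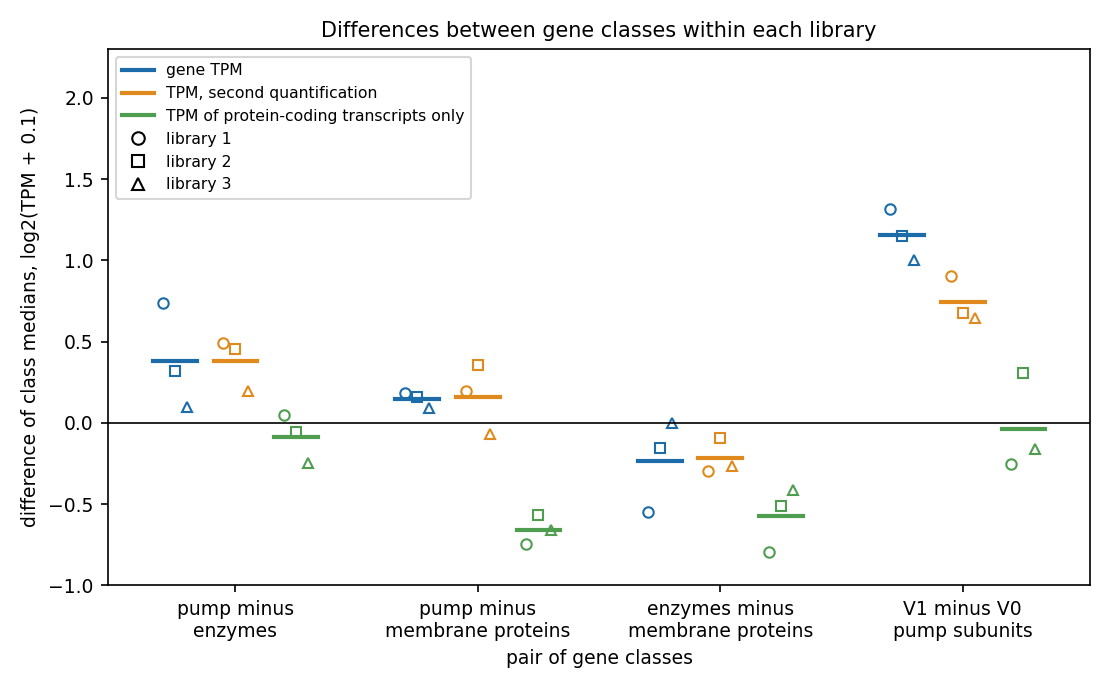
Differences between class medians within each library, on the log2(TPM + 0.1) scale. Open symbols are libraries, short lines their means and colours the 3 measures: gene TPM, TPM of the second quantification and TPM of protein-coding transcripts only. Pump minus membrane proteins is above 0 in gene TPM in all 3 libraries and below 0 in all 3 for protein-coding transcripts only.

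The pump genes had less of their abundance in protein-coding transcripts than the enzymes and membrane proteins did. The annotation lists, beside protein-coding models, transcripts that keep an intron, processed transcripts without a reading frame and targets of nonsense-mediated decay, here called noncoding models. Of the 37 genes, 31 have such a model, and Atp6v1g1, Atp6v1f, Atp6v0d2, Atp6v0e, Hexa and Psap have none. Among the 31, the median share of gene abundance in protein-coding transcripts was 49.1% ± 5.59, against 54.6% ± 0.42 in 8986 detected protein-coding genes that also have a noncoding model (SD of library medians, n = 3). For the 13 pump genes it was 33.5%, 38.0% and 42.3% in libraries 1 to 3. For the 10 enzymes it was 60.7%, 61.6% and 65.0%, and for the 6 membrane proteins 63.8%, 68.9% and 61.4%. The pump range did not overlap with either of the others. Retained-intron models held a median of 50.4% ± 6.09 of pump gene abundance. The value was 26.8% ± 1.66 in enzymes, 25.5% ± 1.80 in membrane proteins and 27.8% ± 0.48 in all detected genes of this kind. Within the pump the sectors differed, with 66.1% ± 3.22 in V1 and 30.8% ± 1.57 in V0, near that of all such genes. The accessory genes Atp6ap1 and Atp6ap2 had means of 47.8% and 57.1%.

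The order was kept in the second quantification, at 32.8% ± 1.08 for pump genes, 50.2% ± 1.59 for enzymes and 54.6% ± 1.90 for membrane proteins. There the median over the 31 genes was 49.5% ± 1.67, against 45.2% ± 0.89 in all detected genes with a noncoding model. The 31 genes thus stood below such genes in the first quantification and above them in the second. Counted in expected counts, where long models weigh more, the gap between pump genes and the other classes was narrower. The shares were 60.5% ± 6.55 for pump genes, 72.6% ± 1.72 for enzymes and 73.4% ± 1.62 for membrane proteins. All were below the 75.1% ± 0.59 of all detected genes with a noncoding model. By abundance, enzymes and membrane proteins stood above such genes in both quantifications. The transcript with the largest share was noncoding in 13 of the 31 genes, 41.9%, near the 35.4% of all detected genes with a noncoding model. By class it was noncoding in 9 of 13 pump genes, 3 of 10 enzymes and 0 of 6 membrane proteins. In the second quantification these counts were 9, 6 and 1, and 17 of 31 in all, 54.8%, against 51.2% of all such genes. These shares are a description, and no test of the class difference is given. Chromatin RNA also holds unspliced and partly spliced transcripts, and whether their reads were assigned to noncoding models was not tested. The shares therefore do not show which finished transcripts these genes make.

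**Figure D4:**
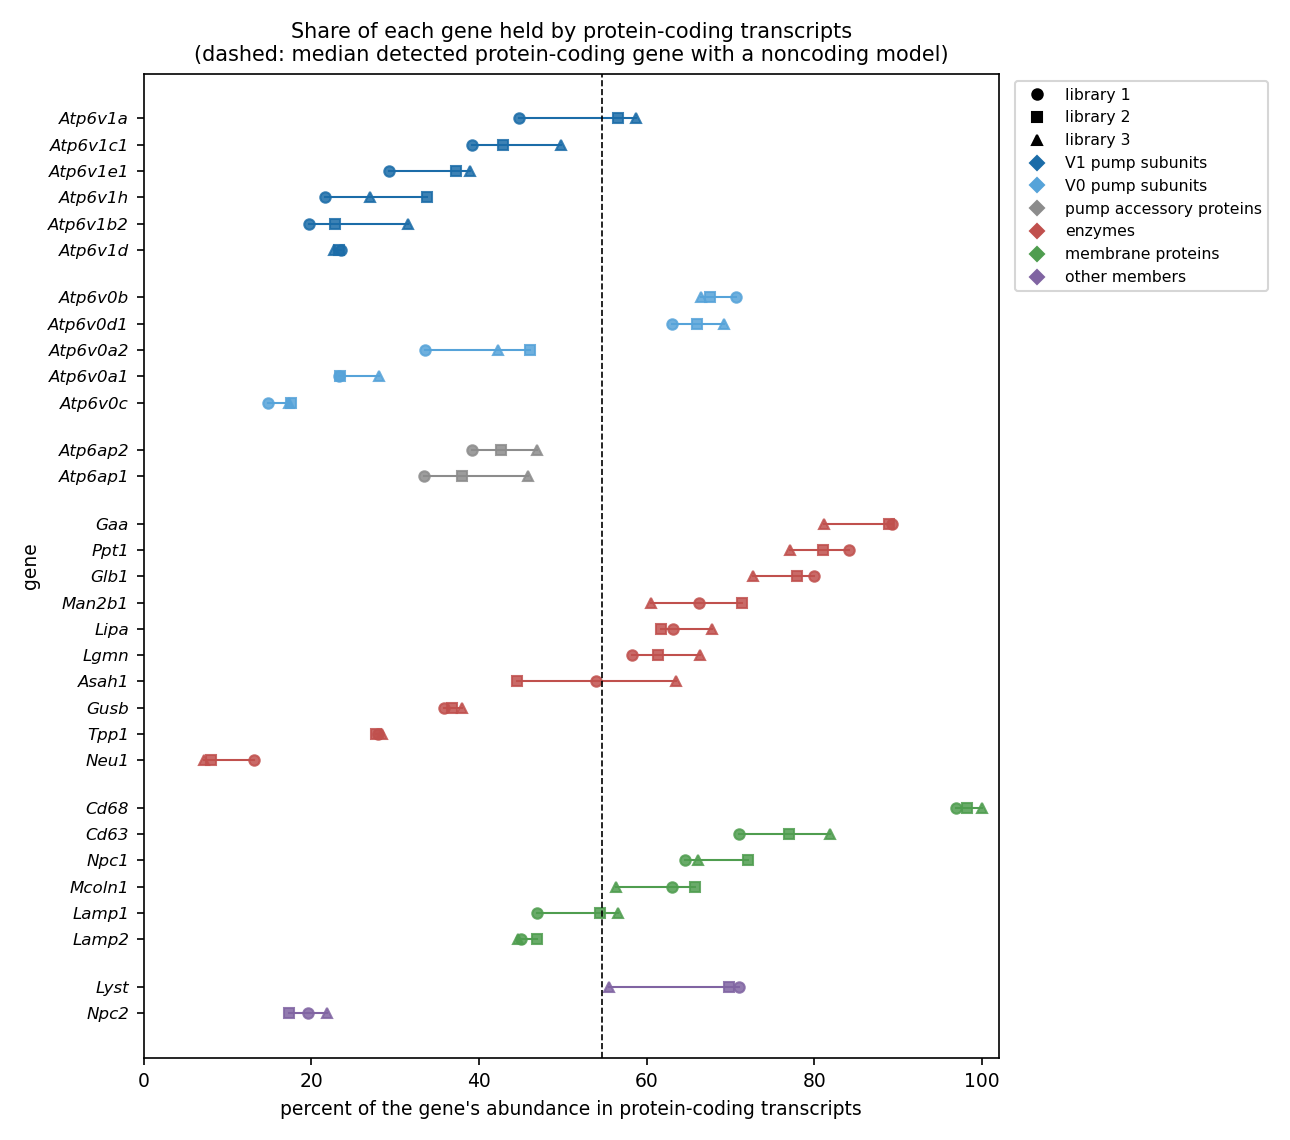
Share of each gene's abundance in protein-coding transcripts, in percent, for the 31 genes with a noncoding model. Rows are genes, colours classes, marker shapes libraries and lines the range over libraries, and the dashed line marks the 54.6% median of detected protein-coding genes with a noncoding model. Of the pump genes, Atp6v0b and Atp6v0d1 lie right of the line in all libraries, and Neu1 is the lowest gene.

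Atp6v0c (ENSMUSG00000024121.13, chromosome 17, 24163866 to 24169702) had the lowest protein-coding share of the pump genes. Its processed transcript Atp6v0c-205 held 79.9%, 76.6% and 76.5% of the gene's abundance, and 57.1%, 53.4% and 53.8% in the second quantification. The protein-coding Atp6v0c-201 held 14.6%, 17.6% and 17.4%. Processed transcripts also led in Atp6v0a1, where Atp6v0a1-209 held 31.6%, 29.3% and 30.9%, and Atp6v0a1-205 led in the second quantification with 32.4%, 34.0% and 26.3%.

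In the V1 sector most of the noncoding abundance lay in retained-intron models. The share of these models was 68.9%, 69.2% and 67.1% in Atp6v1d, and 80.2%, 77.2% and 68.5% in Atp6v1b2. It was 78.3%, 66.1% and 73.0% in Atp6v1h and 70.7%, 62.7% and 61.1% in Atp6v1e1. For these last genes the second quantification differed: protein-coding transcripts held a mean of 56.3% of Atp6v1h against 27.5% in the first, and 58.1% of Atp6v1e1 against 35.1%. The median protein-coding share was 32.4% for V1 and 40.7% for V0, but 44.9% and 21.5% in the second quantification, so the order of the sectors turned. Of the 6 V1 genes with a noncoding model, Atp6v1c1 alone had a protein-coding transcript on top, Atp6v1c1-201 at 32.3%, 36.2% and 44.6%. In the second quantification the retained-intron Atp6v1c1-204 led it, and 4 of the 6 genes had a noncoding transcript on top. Library 1 had the lowest protein-coding share in 5 of these 6 genes, Atp6v1d being the exception.

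Among the enzymes, Neu1 (ENSMUSG00000007038.5, chromosome 17, 34931253 to 34935953) stood lowest of all 31 genes, with 13.2%, 8.0% and 7.2% in its protein-coding transcript. The retained-intron transcript Neu1-202 held 82.0%, 92.0% and 92.8%. Tpp1 and Gusb also had noncoding leading transcripts, which kept an intron in Tpp1 and was a target of nonsense-mediated decay in Gusb. Gaa, Ppt1 and Glb1, by contrast, had means of 86.4%, 80.8% and 76.9% in protein-coding transcripts. In Npc2 the retained-intron models held 80.4%, 82.7% and 78.1%. Cd68, a short gene of 1.94 kb, was at the other end with 97.0%, 98.2% and 100% protein-coding. In the second quantification the mean protein-coding share was 74.7% for Cd68, 79.0% for Gaa, 59.5% for Glb1 and 58.7% for Ppt1.

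No member was called as varying between libraries more than genes of its abundance did. An edgeR quasi-likelihood test of the spread over the 3 libraries called 0 of 13309 genes at an adjusted p under 0.05 (0% called), and 655 had an unadjusted p under 0.05, none of them among the 37. DESeq2's dispersion outliers numbered 54, with 0 of the 37. Tried on simulated libraries of this depth, the edgeR test found 48 of 100 genes with a 4-fold rise in library 1 and 99 of 100 with an 8-fold rise, so a 4-fold difference was often not detectable. The changed genes had expected means above 100 counts, so genes of fewer counts such as Atp6v1f were not covered, nor were decreases. The median range over libraries was 0.41 in log2 CPM for the 37 genes and 0.51 for all genes tested.

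Atp6v1e1 had the widest range, with log2 CPM of 7.68, 6.85 and 6.93, highest in library 1. Atp6v1g1 followed with 3.05, 2.82 and 2.24, and Cd63 with 5.60, 5.59 and 4.82, both lowest in library 3. Ppt1 had the narrowest, 0.05. After this scaling 26 of the 37 genes were lowest in library 3, and their median deviation from the gene mean was 0.07, 0.12 and -0.20 in libraries 1 to 3, against -0.0044, -0.0082 and 0.016 for all genes tested. In TPM, where library 3 read high for most genes, 32 of the 37 were highest in library 3, so the direction between libraries depended on the scale. There the median detected protein-coding gene was 0.49 above its own mean in log2, and the median member 0.30. The share of all genes highest in library 3 in TPM is not given here. The median log2 level of the 37 genes had an SD over libraries of 0.33 in TPM. It was 0.012 when TPM was rescaled to a total over genes of at least 300 nt. Of the 17 pump genes, 10 were highest in library 1 in log2 CPM, whereas 8 of the 11 enzymes were highest in library 2. Among all 13309 genes tested, 3937 were highest in library 1, 4378 were highest in library 2 and 4455 were lowest in library 3. Whether the amount of starting RNA played a part was not tested.

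**Figure D5:**
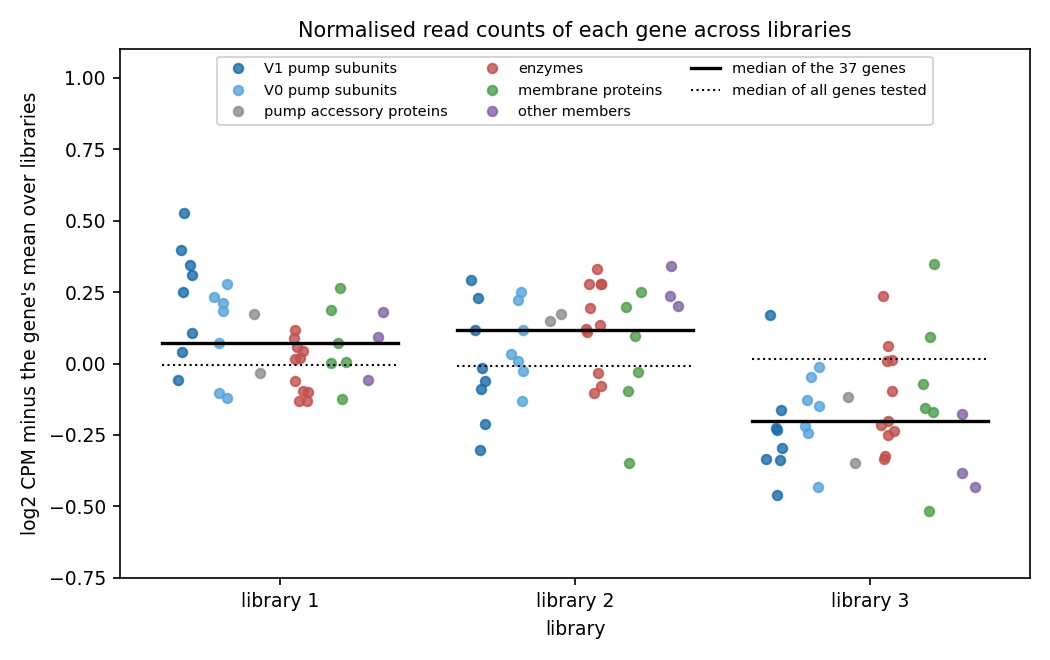
Deviation of each gene's log2 CPM from its own mean over libraries. The x axis gives the library, points are the 37 genes coloured by class, solid lines their median and dotted lines the median of all 13309 genes tested. The median of the 37 genes is -0.20 in library 3, below that of all genes tested at 0.016.

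Other lysosomal genes outside the 37 were mostly detected as well. Of 24 further enzyme genes 23 were detected, with a median of 9.98 ± 3.37 TPM, among them the galactosylceramidase gene Galc at 49.6 and the acid phosphatase gene Acp2 at 28.4 TPM. Smpd1, the acid sphingomyelinase gene, fell below the minimum at 0.18 TPM. All 15 further membrane genes were detected, with a median of 12.9 ± 5.27 TPM, led by the channel gene Tpcn2 at 165, Cln3 at 98.6 and Laptm5 at 75.1 TPM. Of 5 genes of Ragulator, which anchors nutrient signalling to lysosomes, 4 were detected, led by Lamtor3 at 47.0 TPM, and Lamtor2 fell below the minimum at 0.65 TPM. None of the genes of these lists that entered the edgeR test was called, and none had an unadjusted p under 0.05.

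All 4 factors of the MiT-TFE family, which bind the lysosomal E-box element, were detected. Tfe3 had 18.3, 23.0 and 30.7 TPM, Mitf 16.5, 17.2 and 26.2, and Tfeb 7.05, 11.1 and 14.4. Tfec, a family member found mainly in macrophages, had 97.6, 25.5 and 63.1 TPM, highest in library 1 and lowest in library 2. Its unadjusted edgeR p was 0.000785 and its adjusted p 0.467 over all genes tested, so it was not called.

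Levels of the 37 genes followed gene structure only loosely. Spearman's rho with mean TPM was 0.09 for gene span, 0.30 for merged exon length and 0.44 for the number of transcript models (n = 37 genes of the same libraries, a description). Over 10983 detected protein-coding genes it was 0.22, 0.29 and 0.40. Mean TPM in the first and second quantifications ranked the 37 genes alike, with a rho of 0.96.

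Some values carry a limit from shared sequence. Atp6v0c, Atp6v1f, Atp6v1g1, Cd63 and Atp6ap2 have pseudogene copies of at least 95.8% identity in the aligned part, and how reads were split between copies is uncertain. The most counted copy, Atp6v0c-ps2, had a mean of 6.06 counts against 3659 for Atp6v0c. Npc1, Lamp1, Hexa, Ppt1, Atp6v0b, Atp6v0a2, Atp6v1e1 and Atp6v1h share exon bases with a gene on the opposite strand. The strand setting is not given in the sources used here, so reads of such pairs cannot be told apart. The largest shared part was 12.8% of Hexa's exon bases, with Tmem202, which had a mean of 15.0 counts. Ppt1, with a mean of 526.7 counts, shares 3.51% of its exon bases with Cap1, at 758.9 counts, and Npc1 4.52% with Rmc1, at 1034 counts. Glb1 shares 165 bases with Tmppe on the same strand, at 108.9 counts against 325.1 for Glb1.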

How the data were processed

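RNA of the chromatin fraction was measured in 3 libraries of 1 group. Expected counts and TPM per gene and transcript, posterior mean TPM and the percent of a gene's abundance per transcript were deposited by the authors, per the file headers; build and annotation were mm10 and GENCODE M21. The authors also deposited a second transcript table with estimated counts and TPM. Which tools and which strand setting were used is not given in the sources used here. Entries that name no mouse gene held 1.03%, 0.24% and 0.22% of counts and were left out.

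Members, classes and lists were chosen with earlier results of these data known. Named genes are the 37 members, the pump paralogs, the MiT-TFE factors, the 3 highest and up to 2 undetected genes of other pathway lists and the highest marker of each cell type. Some genes that this rule covers are not reported here. Symbols of all 37 members matched. The spread test took expected counts, rounded to integers, into edgeR 4.0.16 under R 4.3.3 (TMM, filterByExpr, intercept-only quasi-likelihood fit, deviance over degrees of freedom against the trended prior, Benjamini-Hochberg at 0.05) and was tested on simulated data for 13309 genes. Class values are medians per library of TPM or of log2(TPM + 0.1), computed here. Shared sequence was searched with BLAST 2.17.0. Promoter windows came from RefSeq. The settings varied were the pseudocount (1 and 0.01), CPM, class means, posterior mean TPM, the second quantification, TPM over genes of at least 300 nt, a detection minimum of 100, other motif searches, DESeq2 1.42.0, no filter, robust empirical Bayes and leaving out each replicate. TPM of protein-coding transcripts and leaving out members with pseudogene copies were added after seeing the data. Counting error limits genes of few counts: at this depth a count of 0 allows 3 counts.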

Additional observations from a re-analysis of the deposited data

How the results depend on the processing

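All 37 genes stayed detected in the second quantification and without each replicate, 36 had a mean of at least 100 counts (all but Atp6v1f), and under the settings tried 0 of them passed the spread test. On the log2 scale pump minus enzymes was 0.38, and turned to -0.42 in CPM and -0.084 for protein-coding transcripts, with 0.027 by class means. Pump minus membrane proteins was 0.15, and turned to -0.28 in CPM, -0.31 by class means and -0.66 for protein-coding transcripts, with 0.29 for posterior means and 0.25 without members that have pseudogene copies. Enzymes minus membrane proteins was -0.24, turned to 0.15 in CPM and was -0.57 for protein-coding transcripts. V1 minus V0 was 1.16, turned to -0.31 by class means and -0.037 for protein-coding transcripts, and was 0.74 in the second quantification, 0.089 for posterior means, 0.89 in CPM and 1.54 without members that have pseudogene copies. The cause of these changes was not tested. The median log2 level of 5.01 was 5.46 in the second quantification, 6.27 in CPM, 6.56 over genes of at least 300 nt and 4.0 for protein-coding transcripts. The protein-coding share of 49.1% was 65.6% from expected counts, and the motif share of 31.0% was 13.8% for the longer motif. The spread test called 0 genes, against 117 without the filter, 7 in the second quantification and 54 by DESeq2's dispersion outliers.

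Leaving out a replicate gave 0.21 to 0.53 for pump minus enzymes, 0.13 to 0.17 for pump minus membrane proteins, -0.35 to -0.08 for enzymes minus membrane proteins, 1.08 to 1.23 for V1 minus V0, 4.84 to 5.17 for the median level, 46.0% to 51.2% for the protein-coding share and 0 to 49 genes called. It called 17 genes without library 1 and 49 without library 2. Of the 37 members, 1 had an unadjusted edgeR p under 0.05 without library 2, and 1 without library 3. Mean TPM of single genes moved by over 1.5 times for 24 genes with protein-coding transcripts only, 14 in the second quantification, 1 for posterior means (Atp6v0a2) and 1 on leaving out a replicate (Lamp2 without library 3). No paired analysis was possible because there is only 1 group. Depth sets the limit for weak genes such as Atp6v1f, with a mean of 30.3 counts.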
